A study of Mus musculus with 4 samples.

Results

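The transcription factors that hold a B cell in the germinal centre (GC) or release it towards the plasma cell were read across sorted mouse B cells. The 10 genes were Bcl6, Bach2, Pax5, Irf4, Irf8, Prdm1, Xbp1, Spib, Pou2af1 and Mef2b, and the members were all probe sets that the platform annotation gives to 1 of these symbols alone. That rule took 10 of 18194 named genes, with 19 of 45101 probe sets. 6 genes had several probe sets and 4 had 1. Germinal centre cells were sorted as B220+PNA+Fas+ and naive cells as B220+PNA-Fas- cells, each pool from 3 to 5 adult C57BL6/J wild type mice. The 4 groups, of 1 array each, were GC B cells of peripheral lymph nodes (GC pLN) from mice immunised with TNP-KLH in incomplete Freund's adjuvant, GC B cells of Peyer's patches (GC PP), the lymphoid follicles of the gut, from untreated mice, naive B cells of the same immunised lymph nodes (naive pLN), and naive B cells of Peyer's patches from untreated mice (naive PP). Site and immunisation therefore cannot be told apart, and the arrays hold no spread between mice.

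In textbook accounts, Bcl6 represses the genes of plasma cell differentiation and allows rapid division, Pax5 and Bach2 maintain B cell identity, and Mef2b activates Bcl6. Irf4 acts at both ends, since it is needed to start the germinal centre and, at a high dose, to leave it. Prdm1 encodes Blimp-1, the repressor that ends the B cell programme, and Xbp1 then expands the secretory apparatus. Pou2af1 encodes OCA-B, a coactivator that octamer-binding factors recruit, and Spib and Irf8 encode partners that bind composite sites together.

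Signals are intensities scaled so that the trimmed mean of each array is 500, and a difference is in log2(signal + offset) with an offset of 19.2. The detection level of an array was the 90th percentile of 63 probe sets of genes of other tissues: 198 on GC pLN, 349 on GC PP, 124 on naive pLN and 191 on naive PP. A probe set was tested if both GC arrays or both naive arrays exceeded the level. Of the 16422 tested, 31.8% were called higher and 22.4% lower in GC cells by limma at an adjusted p under 0.05, with site as a block. The number of arrays limits the precision: the disagreement between the 2 sites leaves 1 residual degree of freedom. The error of a probe set leans mostly on a variance shared by tested probe sets of like signal, with 54.5 prior degrees of freedom. It thus reflects little of that probe set's own disagreement between sites, and p-values do not measure variation between mice. Fas, itself a marker of the sort, read 4266 on GC pLN and 4979.8 on GC PP, against 515 on naive pLN and 403 on naive PP. All 4 tested germinal centre genes were called higher in GC cells, and 4 of 5 naive genes were called lower, while the fifth, Ccr6, was called higher (1.41 ± 0.42, limma adjusted p = 0.0044). The 5 measured genes of B cell identity were above the level on every array, and 2 of them, Cd79a and Cd22, were called lower in GC cells. RNA quality moved with cell type. For Gapdh, signal at the 3′ end divided by signal at the 5′ end gave 1.48 on GC pLN and 1.67 on GC PP, against 18.7 on naive pLN and 96.4 on naive PP. Brightness also moved with the difference, whose median was 0.76 in the dimmest eighth of tested probe sets and -0.84 in the brightest. The part of RNA quality and brightness in the results that follow was not tested.

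GC cells had higher signals of Mef2b and Pou2af1, and of some but not all probe sets of Bcl6, Bach2 and Xbp1. Irf4, Irf8, Pax5 and Spib had no probe set called in either direction, and Prdm1 was above the level on the GC PP array alone. Of the 19 probe sets, 16 were tested, 7 of them called higher in GC cells, 0 called lower and 9 not called. Without adjustment, limma put 1 of the 9, of Irf8, lower at the same threshold. The 16 had a median difference of 0.82, against 0.12 over all tested probe sets. The main probe sets of Bcl6, Bach2, Irf4, Irf8, Spib and Pou2af1 lay in the brightest eighth, with its median of -0.84. For the 7 called, the median of the eighth ran from -0.84 for Pou2af1 to 0.65 for 1450381_a_at of Bcl6. Among the 9 main probe sets, those with the highest mean signal of a gene, 2 were called higher, against 24.8% of the main probe sets of all 8559 genes tested. Among the 7 other tested probe sets, 5 were called higher and 0 lower, against 41.2% higher and 15.4% lower of the 5561 other tested probe sets of all genes. In bulk samples, fewer cells of a type and less RNA per cell cannot be told apart.

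**Figure D1:**
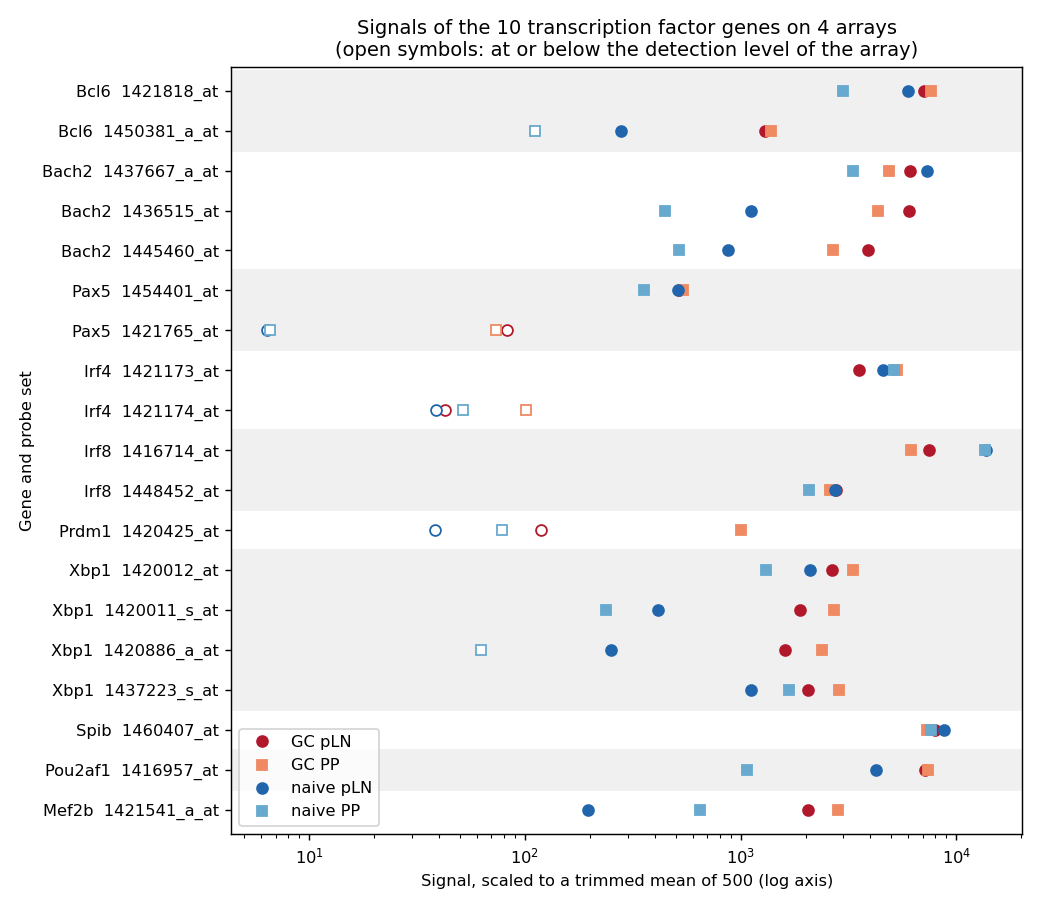
Signal (log axis) of each of the 19 probe sets, in rows by gene, on the GC pLN, GC PP, naive pLN and naive PP arrays. Filled symbols lie above and open symbols at or below the detection level of their array. The main probe sets of Spib and Irf4 have all 4 arrays close together, while for Mef2b both GC arrays lie to the right of both naive arrays.

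Mef2b and its target Bcl6 come first among the factors that build the germinal centre. Mef2b was read at 2058 on GC pLN and 2829 on GC PP, against 197 on naive pLN and 652 on naive PP. The groups did not overlap, and every array was above its level. The share of all tested probe sets without overlap was not counted, so here and below a lack of overlap only describes the values. The difference was 2.67 ± 0.43 (mean over the 2 sites ± SE, limma adjusted p = 6.4e-07), and the ratio of signals was 10.4 in pLN and 4.34 in PP. Without GC PP or GC pLN, without naive pLN or naive PP and under all other alternatives it was called, with differences of 1.86 to 4.07.

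The upstream sequence of Mef2b is shown because it holds the octamer, the element through which octamer-binding factors recruit the product of Pou2af1, and both genes were called higher in GC cells. Upstream sequences of Pou2af1 and of the second RefSeq start of Bcl6 are shown for the elements named after Xbp1 and Bcl6. Each is the 250 bases before a start, 5′ to 3′ on the gene's strand, from RefSeq (GRCm38.p6). They are chr8:70152511-70152760, plus strand, for Mef2b, chr9:51213440-51213689, plus strand, for Pou2af1, and chr16:23981284-23981533, minus strand, for Bcl6. Capitals mark the octamer ATGCAAAT in Mef2b, the unfolded protein response element TGACGTGG in Pou2af1, and 3 copies of the palindrome TTCNNNGAA, the form that Bcl6 and STAT factors bind, in Bcl6.
Mef2b: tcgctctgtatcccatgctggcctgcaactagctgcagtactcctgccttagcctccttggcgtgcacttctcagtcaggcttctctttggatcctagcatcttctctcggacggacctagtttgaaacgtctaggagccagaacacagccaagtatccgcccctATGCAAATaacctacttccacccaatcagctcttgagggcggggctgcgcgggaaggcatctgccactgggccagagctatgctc
Pou2af1: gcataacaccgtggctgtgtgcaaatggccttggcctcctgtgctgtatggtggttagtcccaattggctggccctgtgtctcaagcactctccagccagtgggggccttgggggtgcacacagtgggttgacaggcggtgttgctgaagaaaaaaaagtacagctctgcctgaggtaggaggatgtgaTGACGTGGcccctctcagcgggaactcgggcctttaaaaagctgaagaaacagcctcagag
Bcl6: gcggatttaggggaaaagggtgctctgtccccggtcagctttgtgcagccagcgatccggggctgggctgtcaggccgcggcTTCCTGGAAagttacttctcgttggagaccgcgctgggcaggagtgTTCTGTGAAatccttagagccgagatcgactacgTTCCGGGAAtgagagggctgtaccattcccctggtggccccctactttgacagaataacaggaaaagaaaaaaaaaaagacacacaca

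The table of promoters held 12 windows of 300 bases for the 10 genes, since Bcl6 and Irf8 have 2 starts each, and 32851 windows in all. The windows run 250 bases before to 50 after a start, and both strands were searched. The octamer occurred in Mef2b alone of the members, at positions -85 to -78 from the start, and in 1.74% of all windows. TGACGTGG occurred in Pou2af1, at -61 to -54, and in 0.676% of all windows. The palindrome TTCNNNGAA occurred in 4 member windows, both of Bcl6, that of Bach2 and 1 of the 2 of Irf8, and in 8.30% of all windows. The composite site of Spi-B or PU.1 with Irf4 or Irf8, searched as GGAA and GAAA 2 bases apart, occurred in Bach2 and Bcl6, and in 2.72% of all. The site in the Bcl6 window overlaps no copy of the palindrome. GAAA repeated 2 bases apart, a pair of IRF sites, had no match in the members' windows, against 3.44% of all, nor had the Blimp-1 element AAGTGAAAG, against 0.444%, the Maf recognition element that Bach2 binds with a small Maf protein, against 0.155%, or the MEF2 consensus, against 3.19%. A match of letters is a description and not a bound site, and the sequences printed were chosen after the matches were seen.

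Bcl6, the repressor on which germinal centres depend, was read by 2 probe sets that differed in their call. The brighter, 1421818_at, read 7082 on GC pLN and 7604 on GC PP, against 5987 on naive pLN and 2989.7 on naive PP. Both GC arrays lay above both naive arrays, but the naive pLN array was close to them, and the difference of 0.79 ± 0.46 was not called (95% interval -0.13 to 1.71, limma adjusted p = 0.139). It was called after quantile normalization (1.40, adjusted p = 5.2e-04), cyclic loess (1.43, 0.0011), scaling to the spike-ins (2.21, 0.0020) and without naive pLN (1.29, 2.5e-04). A fit without 1 array carries no block on site, since a block would leave no residual degree of freedom. Its residual error comes from the 2 arrays of the other cell type alone, here GC arrays that lay close together. That error is drawn towards the variance shared by tested probe sets of like signal, and the lone array is assumed to vary like the GC arrays. The dimmer, 1450381_a_at, read 1304 and 1387 on the GC arrays, against 279.998 and 112 on naive pLN and naive PP, the last of which is below its level. Its groups stood well apart, with a difference of 2.78 ± 0.45 (adjusted p = 6.6e-07, limma), or 2.44 with the dim signal set at the level. The 2 probe sets thus agreed on the order of the arrays and gave ratios of 1.18 and 4.66 in pLN and, with the dim signal at the level, of 2.54 and at least 7.26 in PP. Of the T cell list, whose follicular helper subset also uses Bcl6, no measured gene was above the level on either GC array, and 4 of 11 on naive pLN and 1 on naive PP were. Its summed signal was 761 and 1417 on the GC arrays, against 1351 and 733 on the naive arrays. These counts depend on levels that differ between arrays. Cd3e, Cd3d and Cd3g read highest on GC PP, at 244, 236 and 204, below its level of 349. Cd4, Cd5, Cd8a and Thy1 read highest on naive pLN, where the level is 124. The part of T cells in the Bcl6 signal was not tested.

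Pou2af1, whose protein is required for germinal centres to form, read 7150 on GC pLN and 7363 on GC PP, against 4228 on naive pLN and 1069.6 on naive PP. The GC arrays were nearly equal and the naive arrays were not, so the ratio was 1.69 in pLN and 6.88 in PP. The mean difference of 1.76 ± 0.45 was called (limma adjusted p = 0.0010), against a median of -0.84 among probe sets of like brightness. The call was lost without the block on site (adjusted p = 0.0527), without GC pLN (0.0990) and without GC PP (0.111), with differences between 1.74 and 1.78. The difference was 0.78 without naive PP and 2.74 without naive pLN, and both were called.

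Bach2, a repressor that holds back Prdm1 and keeps B cells from the plasma cell fate, had 3 tested probe sets. 1436515_at read 6024 and 4358 on the GC arrays of pLN and PP, against 1116 and 448 on the naive arrays. 1445460_at read 3911 and 2693, against 877 and 519.5. Both were called higher, by 2.82 ± 0.42 (adjusted p = 1.3e-07, limma) and 2.23 ± 0.41 (1.0e-05), and in neither did the groups overlap. The brightest, 1437667_a_at, read 6123 and 4850.3 in GC cells, against 7285 and 3305 in naive cells. There the naive pLN array was highest and the naive PP array lowest, and the difference was 0.15 ± 0.45 (95% interval -0.75 to 1.05, adjusted p = 0.797). Its sign turned without GC pLN (-0.017) and without naive PP (-0.42), and it was called higher when scaled to the spike-ins (1.57) and without naive pLN (0.72).

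Pax5, which commits and keeps cells in the B lineage, was dim. 1454401_at read 521 on GC pLN and 540.4 on GC PP, against 512 and 358 on naive pLN and naive PP. Both GC arrays and naive pLN lay within a narrow band and naive PP below it, and the difference of 0.30 ± 0.44 was not called (95% interval -0.59 to 1.18, limma adjusted p = 0.587). It was -0.27 after quantile normalization and -0.23 after cyclic loess. The second probe set, 1421765_at, was below the level on all 4 arrays, at 83.02 and 73.6 in GC cells and 6.40 and 6.58 in naive cells, so no fold is given for it.

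**Figure D2:**
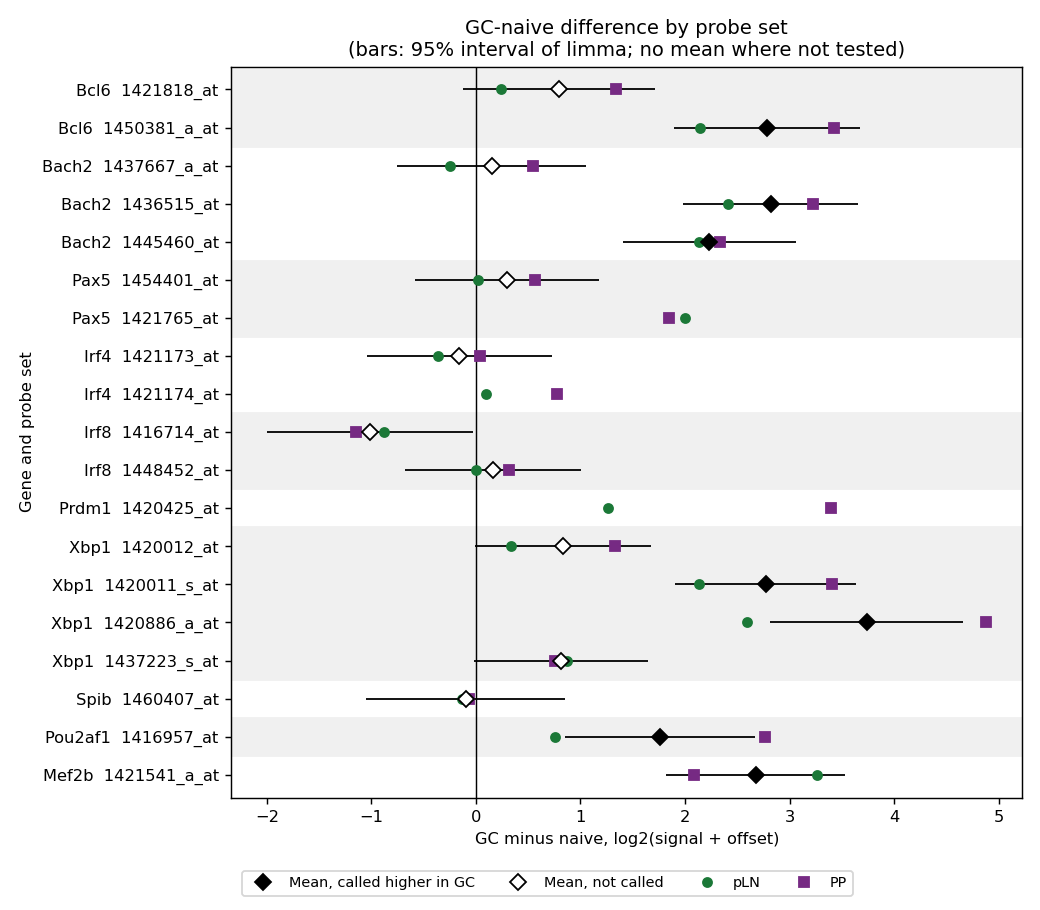
GC minus naive difference, in log2(signal + offset), of each probe set in pLN and in PP, with the limma mean and its 95% interval for the 16 tested. The 7 called probe sets belong to Bcl6, Bach2, Xbp1, Pou2af1 and Mef2b, and other probe sets of Bcl6, Bach2 and Xbp1 have intervals that reach 0.

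Among the interferon regulatory factors, Irf4 and Irf8 share DNA elements and partners such as PU.1 and Spi-B. Irf4 read 3555 on GC pLN and 5302 on GC PP, against 4565 on naive pLN and 5163 on naive PP by 1421173_at. The groups overlapped, with the GC arrays at both ends of the range. The difference of -0.16 ± 0.44 had a 95% interval of -1.05 to 0.73 (adjusted p = 0.778, limma), and its sign turned after quantile normalization (0.22), cyclic loess (0.37), scaling to the spike-ins (1.26) and without GC pLN (0.13). A second probe set, 1421174_at, was below the level on all arrays, at 38.8 to 102.

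Irf8, which in germinal centre cells supports Bcl6 and in myeloid precursors directs their fate, had 2 probe sets. 1416714_at read 7500.2 and 6138 on the GC arrays, against 13800.1 and 13608 on the naive arrays. All GC values lay below all naive values, by ratios of naive over GC of 1.84 in pLN and 2.22 in PP. The difference of -1.01 ± 0.49 was nevertheless not called (95% interval -1.996 to -0.03, adjusted p = 0.0762, limma), beside a median of -0.84 among probe sets of like brightness. It was called lower without rescaling (-1.15, limma adjusted p = 0.0308), without the block (0.0338) and without the intensity trend (0.0457). The difference was -1.002 without naive pLN and -1.02 without naive PP, fits whose residual error comes from the 2 GC arrays alone. The difference shrank to -0.19 after quantile normalization (limma adjusted p = 0.516) and to -0.064 after cyclic loess (0.891). It turned to 0.41 when scaled to the spike-ins. The other probe set, 1448452_at, read 2761 and 2596 in GC cells, against 2751 and 2078 in naive cells, and its groups were close: the difference was 0.16 ± 0.42 (95% interval -0.68 to 1.00, adjusted p = 0.764), and -0.039 without naive PP.

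Spib encodes the ETS factor Spi-B, which works with Irf4 and Irf8 in B cells and is also a factor of plasmacytoid dendritic cells and of the M cells above Peyer's patches. It was bright and even, at 8000 on GC pLN and 7281 on GC PP, against 8787 on naive pLN and 7607 on naive PP. The difference was -0.099 ± 0.48 (95% interval -1.05 to 0.85, adjusted p = 0.875, limma), with the sign turned by quantile normalization (0.71), cyclic loess (0.73), the spike-ins (1.33) and without naive pLN (0.0048). The median of all tested probe sets shifted by -0.20 under quantile normalization, by -0.11 under cyclic loess and by 1.38 with the spike-ins, which exceeds the value of Spib there. Spib lay in the brightest eighth, whose median was -0.84 in the main fit, and the shift of that eighth was not computed. It was called higher after quantile normalization (adjusted p = 0.0238, limma) and when scaled to the spike-ins (0.0302), and not after cyclic loess (0.0858). Of the 12 genes of gut epithelium and M cells, 1 and 2 were above the level on the GC arrays, against 1 and 4 on naive pLN and naive PP, with summed signals of 581 and 2045, against 1416 and 3637. The M cell gene Gp2 was below the level on all 4 arrays. Of 9 dendritic cell genes, 2 and 3 were above the level on the GC arrays, against 5 and 2 on the naive arrays, with summed signals of 5031 and 6018, against 6283 and 1862. Siglech, which marks plasmacytoid dendritic cells, exceeded the level on naive pLN alone. Of 10 macrophage genes, 3 and 2 were above the level on the GC arrays, against 4 and 2 on the naive arrays, with summed signals of 3319.8 and 4477, against 1198 and 1348. The part of these cells in the signals of Spib and Irf8 was not tested.

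The factors of the plasma cell differed from each other. Prdm1, by its single probe set, read 118 on GC pLN and 1007 on GC PP, against 38.2 on naive pLN and 78.1 on naive PP. The GC PP array alone was above its level, so the gene was not tested in the main fit. Against the level of the naive PP array it was at least 5.27-fold higher in GC than in naive cells of PP, and against that of the GC pLN array at least 5.09-fold higher in GC PP.

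Markers of the plasma cell itself were read beside Prdm1. Sdc1, the surface proteoglycan used to stain plasma cells, was 499 on GC pLN and 2024 on GC PP, against 904 and 480.4 on naive pLN and naive PP, so it too was highest on GC PP. Tnfrsf17, the receptor BCMA, was below the level on all 4 arrays. Cd93 was instead lowest on GC PP, at 311 and below the level there alone. It read 577 on GC pLN, and 487 and 467 on naive pLN and naive PP. Slamf7 was close on the GC arrays, at 2051 in pLN and 2147 in PP, against 1262 and 1490 on the naive arrays. Of the 6 markers, 5 and 4 were above the level on the GC arrays, against 5 and 4 on the naive arrays, with summed signals of 18111 and 20259.8 against 5983 and 3396. Jchain, at 9253 and 10618, and Mzb1, at 5705 and 5133, were the largest parts of the sums on the GC arrays. The part of plasma cells in the Prdm1 signal was not tested.

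Xbp1 had 4 tested probe sets, all higher in GC cells of both sites, and 2 of them called. 1420886_a_at read 1604 and 2392 on the GC arrays of pLN and PP, against 250.3 and 62.5 on the naive arrays, where naive PP was below its level. The difference was 3.74 ± 0.46 (limma adjusted p = 1.8e-09), or 3.06 with the dim signal at the level, the largest among the member probe sets tested. 1420011_s_at read 1888 and 2724, against 415 and 239, a difference of 2.77 ± 0.43 (adjusted p = 3.6e-07). The groups did not overlap for either probe set.

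The other pair was closer. 1420012_at, the main probe set, read 2647 and 3333 on the GC arrays, against 2092 and 1316 on the naive arrays, a difference of 0.83 ± 0.42 (95% interval -0.01 to 1.68, adjusted p = 0.0898, limma). 1437223_s_at read 2055 and 2862, against 1115 and 1682, a difference of 0.82 ± 0.41 (95% interval -0.01 to 1.65, adjusted p = 0.0905). In 1437223_s_at the ratio was about the same in both sites, 1.84 in pLN and 1.70 in PP, whereas in 1420886_a_at it was 6.41 in pLN and, with naive PP at its level, at least 12.5 in PP. 1420012_at was called after cyclic loess (0.97, adjusted p = 0.0450), when scaled to the spike-ins (2.24, 0.0386) and without naive pLN (1.16, 0.0037), and 1437223_s_at without naive PP (1.11, 0.0115). The arrays do not separate the spliced from the unspliced transcript of Xbp1.

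Disagreement between probe sets of a gene was common on these arrays. Of the 4 members with several tested probe sets, Bcl6, Bach2 and Xbp1 had calls of different kinds, as had 61.0% of the 3485 genes with several. The range of the difference within a gene was 1.99 for Bcl6, 2.67 for Bach2, 1.17 for Irf8 and 2.92 for Xbp1, against a median of 1.52 over those genes and a 90th percentile of 3.48. In all 4 members the dimmest tested probe set had a higher difference than the brightest, as in 69.7% of the 3485 genes.

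The 2 sites were then set beside each other, each as 1 array against 1 array and without a test. In pLN, 6 of the 16 member probe sets above the level on either array were higher in GC cells by 2-fold or more and 0 were lower, where 28.7% of all such probe sets were higher and 20.8% lower. In PP, 10 of 17 were higher and 1, of Irf8, was lower, where 36.2% of all were higher and 26.4% lower. Of the 16 tested, 13 had the larger difference in PP, as had 57.7% of all tested probe sets. The exceptions were Mef2b, at 3.26 in pLN against 2.09 in PP, 1416714_at of Irf8 and 1437223_s_at of Xbp1. The 3'/5' ratio of Gapdh was also higher on naive PP, at 96.4, than on naive pLN, at 18.7.

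**Figure D3:**
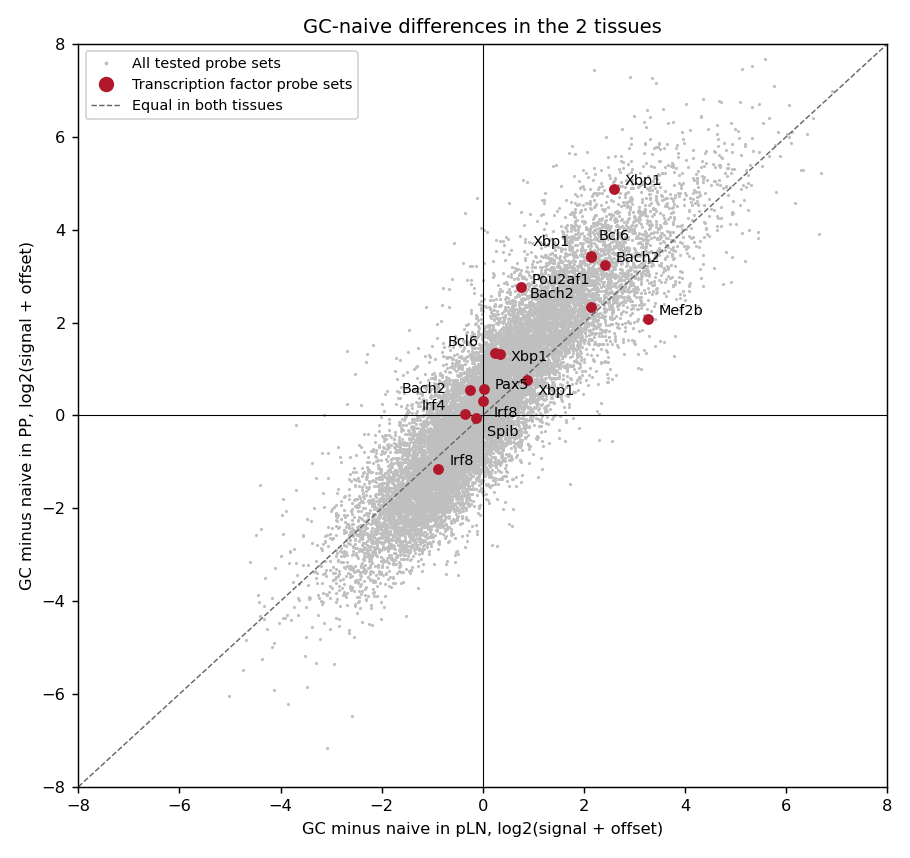
GC minus naive difference in PP against that in pLN, in log2(signal + offset), for all 16422 tested probe sets and the 16 of the transcription factors, each point a probe set and the broken line equality. Most transcription factor points lie above the line; Mef2b lies to its right, at 3.26 in pLN and 2.09 in PP.

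Within a cell type, the GC arrays of the 2 sites were close and the naive arrays were not. In GC cells, 0 of 17 member probe sets were 2-fold higher in pLN and 1, of Prdm1, was lower, where 1.66% of all were higher and 2.44% lower. Among the 16 tested the largest pLN minus PP difference in GC cells was 0.57 in size, and the median size 0.33, against 0.22 over all tested probe sets. In naive cells, 6 of 16 were higher in pLN and 1, of Mef2b, was lower, where 19.3% of all were higher and 8.72% lower. The 6 were of Bcl6, Bach2, Xbp1 and Pou2af1. For 1450381_a_at of Bcl6 and 1420886_a_at of Xbp1 naive PP was below its level, and with such signals set to the level the ratios were at least 1.47 and at least 1.31. That left 4 higher and 1 lower, where 11.9% of all were higher and 7.6% lower. The median size in naive cells was 0.74, against 0.56 over all, or 0.62 against 0.55 with signals set to the level. For Pou2af1 the ratio of naive pLN over naive PP was 3.95, with both arrays above their level.

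By gene, Bach2 was higher in pLN than in PP by all 3 probe sets in both cell types, by 0.34 to 0.54 in GC cells and 0.74 to 1.28 in naive cells. Xbp1 was lower in pLN than in PP by all 4 probe sets in GC cells, by -0.33 to -0.57, while in naive cells 3 were higher and 1 lower, with differences of -0.58 to 0.75 once the naive PP signal of 1420886_a_at was set to its level. Irf4 by 1421173_at was lower in pLN in both, at -0.57 in GC and -0.18 in naive cells, and Mef2b by its member probe set likewise, at -0.46 and -1.63. A probe set annotated to both Borcs8 and Mef2b, outside the members, went the other way, at 0.36 in GC and 1.64 in naive cells. None of these has a replicate check.

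**Figure D4:**
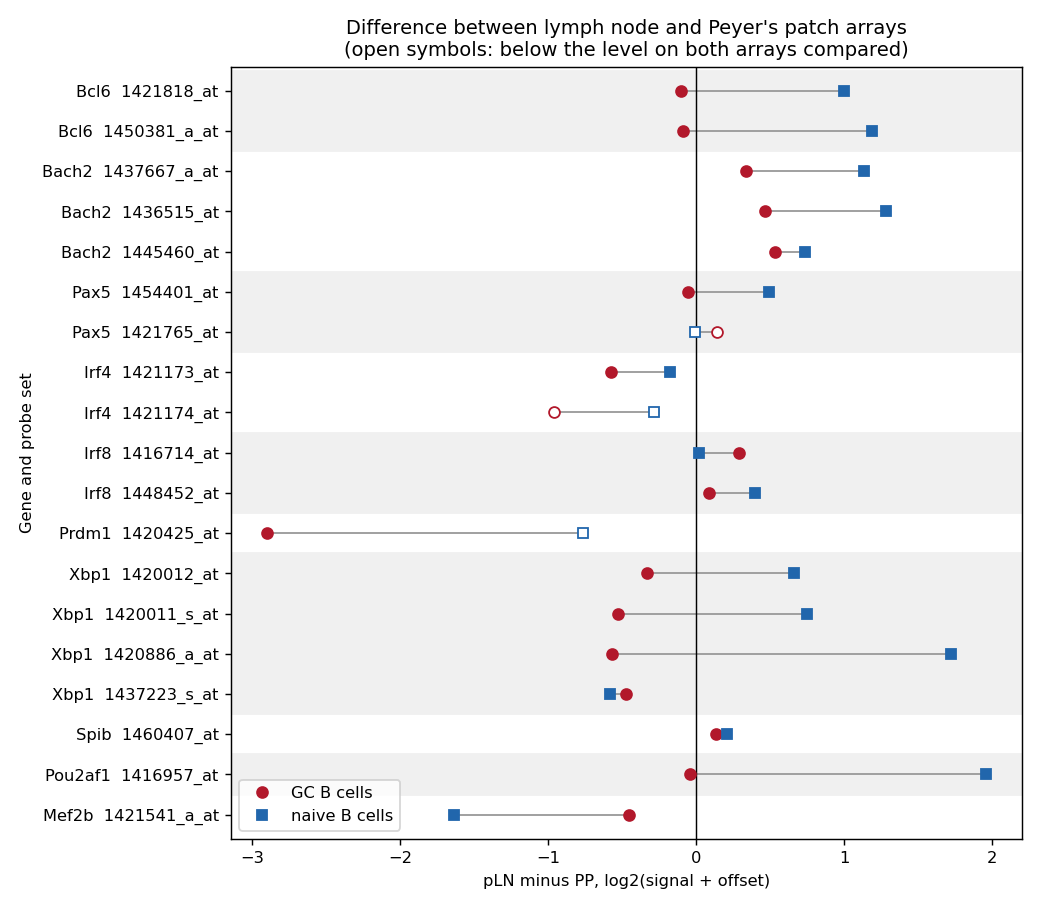
Difference of pLN minus PP, in log2(signal + offset), in GC B cells and in naive B cells for each probe set, joined by a line; open symbols were below the level on both arrays compared. Most GC symbols lie within 0.57 of 0, except Prdm1 and the dim second probe set of Irf4, while naive symbols run from -1.63 for Mef2b to 1.96 for Pou2af1. Signals are plotted as read, also where 1 of the 2 arrays was below its level, as naive PP was for 1450381_a_at of Bcl6 and 1420886_a_at of Xbp1.

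Genes that these factors act on or with were read by main probe sets, of which 24.8% of all tested were called higher and 27% lower, with a median difference of -0.16. Among 11 tested genes known as targets of repression by Bcl6, 4 were called higher, 5 lower and 2, including the member Irf4, not called. Their median was -0.90. With signals below the level set to it, 4 were higher and 3 lower, with a median of -0.49: Cdkn1a and Pdcd1lg2, named after their values were seen, lost their calls (limma adjusted p = 0.197 and 0.0827). Ccnd2, a cyclin of early G1, was lower (635 and 1975 in GC cells, against 4849.6 and 9496.5 in naive cells), and so was Gpr183, which guides B cells to the outer follicle (-2.46 ± 0.43). Cd44, an adhesion receptor, and Cd69, an early activation antigen, were higher, by 2.63 ± 0.44 and 2.14 ± 0.43. Of 11 tested cofactors and regulators of Bcl6, 4 were higher, 1 lower and 6 not called (median -0.15). Fbxo11, which targets Bcl6 protein for degradation, was 3119.7 and 3429.6 in GC cells, against 313 and 289 in naive cells. Hdac3 and Bcor, corepressors of Bcl6, were higher by 1.94 ± 0.43 and 1.54 ± 0.42, and Hdac5 was lower, at -2.42 ± 0.43, with GC PP below its level.

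Of 11 tested genes activated by Pax5, 2 were higher, 6 lower and 3 not called, with a median of -1.07. The lower ones included Cd22, an inhibitory co-receptor (-1.96 ± 0.55), Cd72, another one (-1.92 ± 0.53), Fcer2a, the low affinity IgE receptor (-1.66 ± 0.45), and Cr2, a complement receptor (-1.61 ± 0.46). All 11 but Vpreb3 lay in the brightest eighth of tested probe sets, whose median difference was -0.84. Of 8 genes that Blimp-1 represses or that oppose it, 4 of them members, 2 were higher, 1 lower and 5 not called (median 0.54). These were Ets1, which restrains plasma cell differentiation (1.22 ± 0.42), Id3, an inhibitor of E proteins (1.04 ± 0.42), and Ciita, the master regulator of MHC class II genes, which was lower (-1.07 ± 0.45).

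Of 22 tested plasma cell and secretory genes, 8 were higher, 2 lower and 12 not called (median 0.60). Mzb1, a chaperone of antibody secretion, read 5705 and 5133 in GC cells, against 1606 and 85.4 in naive cells, the last below its level. Jchain, which joins IgM and IgA polymers, read 9253 and 10618 in GC cells, against 1707 and 827 in naive cells. Sec61b, a subunit of the translocon, rose by 2.08 ± 0.43 and Dnajb9, a chaperone gene induced by Xbp1, by 1.89 ± 0.45. The 2 lower genes, named after their values were seen, were Sec61a1, another subunit of the translocon (-1.44 ± 0.47), and Fkbp11 (-1.35 ± 0.45). For Fkbp11 both GC arrays were below their level. Hspa5, the chaperone BiP, named after its value was seen, had a difference of -1.001 ± 0.49 that missed the threshold (limma adjusted p = 0.0762).

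Of 22 tested paralogues and partners, 7 were higher, 5 lower and 10 not called (median 0.13, or 0.15 with signals below the level set to it). Pou2f2, the octamer-binding factor Oct-2, read 2505 on both GC arrays, against 509 and 428 on the naive arrays, and Prdm2 was higher by 2.34 ± 0.44. Zbtb7a, a repressor of the family of Bcl6, was lower (1286 and 1255 in GC cells, against 8359 and 17954 in naive cells). Spic, an ETS factor related to Spib, was at least 1.90-fold lower in GC cells, where it was below the level on both arrays. The paralogues of Mef2b, named after their values were seen, did not move as one. Mef2a and Mef2d were higher, by 1.08 ± 0.42 and 1.61 ± 0.42, and Mef2c was lower, at -1.40 ± 0.48.

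**Figure D5:**
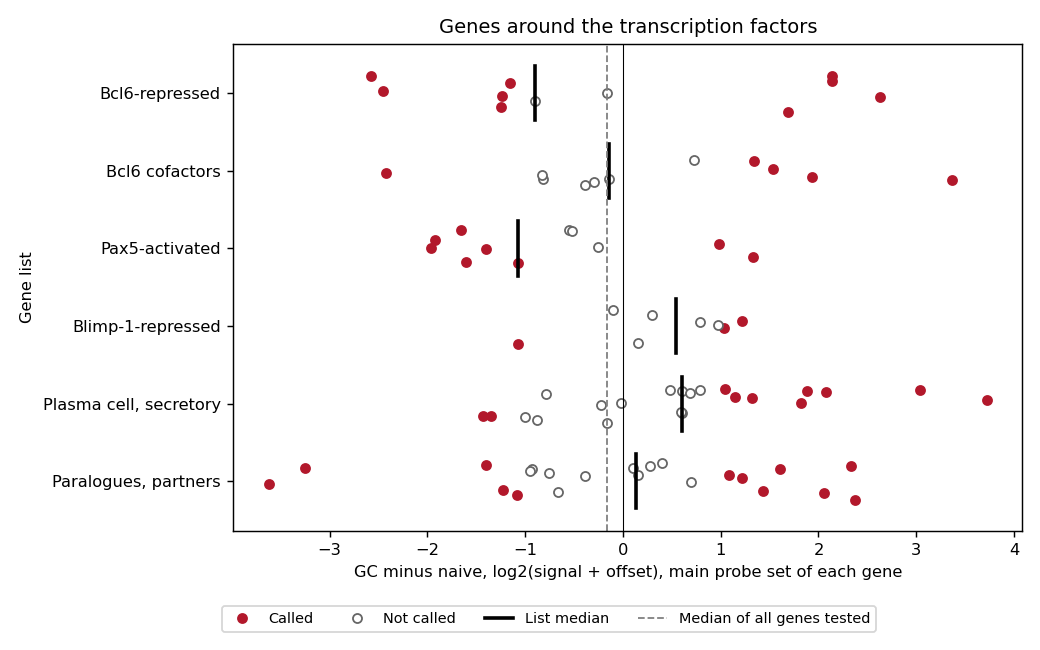
GC minus naive difference, in log2(signal + offset), of the main probe set of each tested gene on 6 lists, one row a list, with called genes filled, list medians as bars and the median of all genes tested, -0.16, as a broken line. Bcl6-repressed and Pax5-activated genes have medians of -0.90 and -1.07, and plasma cell and secretory genes a median of 0.60. All tested Pax5-activated genes but Vpreb3 lie in the brightest eighth of tested probe sets, whose median is -0.84.

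By the shape of the signal over the 4 arrays, Lims1 and Tyms came nearest to Mef2b, at root mean square distances of 0.17 and 0.19 between mean-centred log2 signals. The nearest genes to Bcl6 were Mtx1 (0.012) and Hdac1 (0.034), and to Pou2af1 Slain2 (0.066) and Ppm1k (0.077). Sp1 (0.024) was nearest to Bach2, Pja1 (0.024) to Pax5, Timm44 (0.015) to Irf4, Ubr4 (0.013) to Irf8, Haus4 (0.040) to Xbp1 and Rabepk (0.020) to Spib. With 4 arrays such nearness describes these samples alone.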

How the data were processed

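Gene expression was measured on single-colour Affymetrix arrays, and the deposited intensities came from GCOS, per the submitters' processing notes, with no version or scaling target named in the sources used here. They are linear, with a median of 1 on every array. Since their 2% trimmed means ran between 7.35 and 10.0, all arrays were brought to a trimmed mean of 500 here. Probe sets were named from the platform annotation: 34958 had 1 symbol, 932 several and 9211 were not listed, and 34754 Entrez identifiers matched RefSeq, changing 0 symbols. A probe set annotated to both Borcs8 and Mef2b was therefore no member. 0 columns were unused.

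The GC minus naive difference was fitted in limma 3.58.1 under R 4.3.3 on log2(signal + 19.2), with site as a block, an intensity trend (prior degrees of freedom 54.5) and Benjamini-Hochberg adjustment over all tested probe sets. The fit was also run on simulated data with independent normal noise. These held no difference in RNA quality between cell types and no shift with brightness, so they cannot test the fit against either. Called genes of a list were named by size of difference, up to 4 a list, and members in full. The members and lists were chosen with earlier results of these data known. The alternatives were scaling, offset, filter, block, trend, fold, 1 probe set a gene and each array left out. Some list genes, such as 2 of the Bcl6 cofactors, were not analysed here.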

Additional observations from a re-analysis of the deposited data

Results flagged for a closer look

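In 2 probe sets the GC minus naive difference had opposite signs in the 2 sites. For 1437667_a_at of Bach2 it was -0.25 in pLN and 0.55 in PP, a gap of -0.80 on the log2 scale, and for 1421173_at of Irf4 it was -0.36 in pLN and 0.04 in PP, a gap of -0.40. In 7 probe sets the pLN minus PP difference had opposite signs in GC and naive cells. For Pou2af1 the gap was -2.01, with -0.04 in GC and 1.96 in naive cells. For 1420886_a_at of Xbp1 it was -2.29 as read, but naive PP was below its level there, and -0.93 with that signal set to the level. The gaps of the other Xbp1 probe sets were -1.27 for 1420011_s_at and -0.99 for 1420012_at, those of Bcl6 were -1.10 for 1421818_at and -1.28 for 1450381_a_at, or -0.60 for 1450381_a_at with its naive PP signal, also below the level, set to it, and that of Pax5 by 1454401_at was -0.55. Each rests on 1 array a group, and none of these differences was tested.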

How the results depend on the processing

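The 7 member probe sets called higher became 11 when scaled to the spike-ins and 2 with 1 probe set a gene; leaving out 1 array, and with it the block on site, which would leave no residual degree of freedom, gave 6 to 10. The array and the block changed together there, and the lone array of a cell type was assumed to vary like the other cell type. The 0 called lower became 1 without rescaling, without the replicate block and without the intensity trend, and 0 to 1 with 1 array left out. Over all probe sets, 5230 higher became 2712 with the filter on all 4 arrays, 2107 with 1 probe set a gene and 7850 with the level set without Gh, Prm1 and Mbp, an alternative chosen after seeing the data; 3671 lower became 135 when scaled to the spike-ins, 2366 with the stricter filter and 2311 with 1 probe set a gene. Leaving out 1 array gave 2450 to 6736 higher and 968 to 4875 lower, the lowest without GC PP. At 1.5-fold, 1 member probe set counted as lower in GC than naive cells of pLN and 2 as lower in pLN among naive cells. Scaled to the spike-ins, 10 were 2-fold higher in GC cells of pLN, 16 in PP and 13 in pLN among naive cells, and 0 were lower in GC cells of PP or in pLN among naive cells; after quantile normalization 0 were lower in GC cells of PP. With signals below the level set to it, an alternative also chosen after seeing the data, 4 in place of 6 were higher in pLN among naive cells, and the other 2-fold counts were as before. That scaling to the spike-ins moved the median of all tested probe sets by 1.38, and omitting the rescaling by -0.14. Reversed differences were 0.41 for Irf8 1416714_at with the spike-ins; 0.22, 1.26 and 0.37 for Irf4 with quantile normalization, the spike-ins and cyclic loess, and 0.13 without GC pLN; -0.27 and -0.23 for Pax5 with quantile normalization and cyclic loess; 0.71, 1.33 and 0.73 for Spib with quantile normalization, the spike-ins and cyclic loess, and 0.0048 without naive pLN; -0.017 and -0.42 for Bach2 1437667_a_at without GC pLN and without naive PP; and -0.039 for Irf8 1448452_at without naive PP. With 1 array left out, differences ran between -0.45 and 0.13 for Irf4, -0.42 and 0.72 for Bach2 1437667_a_at, -0.039 and 0.36 for Irf8 1448452_at and -0.20 and 0.0048 for Spib. The cause was not tested. Prdm1, 1421765_at of Pax5 and 1421174_at of Irf4 were tested only without the filter and with the level set without Gh, Prm1 and Mbp. Prdm1 was called higher in both (2.33, limma adjusted p = 0.0021, and 2.44, 2.1e-04). So was 1421765_at of Pax5 (limma adjusted p = 0.0061 and 9.7e-04), though below the main level on all 4 arrays. Neither setting gave a call for 1421174_at of Irf4. The calls of Mef2b, of 1450381_a_at of Bcl6, of 1436515_at and 1445460_at of Bach2 and of 1420886_a_at and 1420011_s_at of Xbp1 held under every alternative in which they were tested, 14 to 16 each, with differences between 1.86 and 4.97.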

Other observations

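A probe set annotated to both Borcs8 and Mef2b, and so outside the members, read 2767 on GC pLN and 2151 on GC PP, against 1298 on naive pLN and 402 on naive PP. Its difference of 1.72 ± 0.42 was called higher (limma adjusted p = 5.7e-04), with a ratio of 2.13 in pLN and 5.35 in PP, whereas the member probe set of Mef2b had 10.4 and 4.34.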
